A study of Mus musculus with 4 samples.

Results

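The subunits of the oxidative phosphorylation complexes were followed in single cells of mouse colonic organoids. Members were taken by gene symbol alone: the nuclear Ndufa, Ndufb, Ndufc, Ndufs and Ndufv genes of complex I, Sdha to Sdhd of complex II, Uqcr genes of complex III, Cox4 to Cox8 genes of complex IV, Atp5 genes of complex V, and the protein-coding mt-Nd, mt-Cytb, mt-Co and mt-Atp genes of mitochondrial DNA, with pseudogenes left out. This gave 97 of 30360 genes in the matrix, 84 encoded in nuclear chromosomes and 13 in mitochondrial DNA. The nuclear members comprised 35 of complex I, 4 of complex II, 8 of complex III, 20 of complex IV and 17 of complex V, where the symbol Atp5o stood on 2 Ensembl identifiers, so that 83 symbols were distinct.

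Organoids were grown from distal colon of 16-week-old wildtype (WT) mice and of mice lacking Tnfr2 (Tnfrsf1b), a receptor for the cytokine TNF, in the whole body (Tnfr2-/-). They were kept in Matrigel with Intesticult medium to passage 5. Cultures of each genotype stayed untreated or received TNF (20 ng/ml), begun on day 1 of the passage and continued until day 6, and all were harvested on day 7. Each of the 4 conditions was 1 culture and 1 droplet-based 3′ library, so no value below has a replicate, no p-value was computed, and intervals are exact 95% intervals that cover counting error only. Values are given in the order WT untreated, WT TNF, Tnfr2-/- untreated, Tnfr2-/- TNF. Level means unique molecular identifiers (UMIs) of a gene per 1000000 UMIs summed over the named cells (CPM), and a difference is the log2 ratio of 2 levels after adding 1 CPM.

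Cells numbered 2589, 1469, 1117 and 980, with median UMIs per cell of 26293 to 39112. The 7 epithelial classes of the deposited annotation held 1128, 1163, 1023 and 858 cells, and the 4 mesenchymal classes held 1430, 306, 90 and 122. The authors divided epithelial from mesenchymal cells in these same counts, by genes such as Krt8 and Acta2. Both genes are among the markers summed here, so the sums describe the division and do not test it. The 5 epithelial markers summed to 10510 to 13370 CPM in epithelial and 127 to 763 CPM in mesenchymal cells. The 6 mesenchymal markers summed to 4.58 to 19.8 CPM and 8760 to 11910 CPM. Only 3 of 6152 distinct barcodes occurred in more than 1 library. Xist, expressed from the inactive X chromosome of females, was at 558 and 683 CPM in the epithelial cells of the WT libraries and at 0.158 and 0.101 CPM in those of the Tnfr2-/- libraries, so genotype cannot be told apart from the sex of the animals or from the culture. Tnfrsf1b itself was at 4.17, 12.1, 1.82 and 6.89 CPM in epithelial cells, but a 3′ tag need not lie in the deleted part of the gene and thus checks nothing.

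Oxidative phosphorylation moves electrons from NADH (complex I) and succinate (complex II) through complex III to oxygen at complex IV, and ATP synthase (complex V) uses the proton gradient that results. Both genomes build these machines: the catalytic cores of complexes I, III and IV and part of the membrane portion of complex V are made inside the mitochondrion, whereas complex II and all other subunits are imported. Mitochondrial transcripts arise as long precursors from both strands and are cut at the tRNAs between genes, so that mt-Nd4l with mt-Nd4 and mt-Atp8 with mt-Atp6 remain on shared mRNAs. In the colon, differentiated absorptive cells are known for strong mitochondrial respiration.

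Both shared mRNAs are shown because read assignment at their joints, not examined here, could bear on the ratios given further on. The capitals mark the bases that belong to both reading frames, read from GRCm38 on the plus strand at chrM:10143-10197 for the 7 shared bases of mt-Nd4l (297 bases) and mt-Nd4, and at chrM:7915-7981 for the 43 shared bases of mt-Atp8 (204 bases) and mt-Atp6.
mt-Nd4l into mt-Nd4: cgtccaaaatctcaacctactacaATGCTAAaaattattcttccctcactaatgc
mt-Atp8 into mt-Atp6: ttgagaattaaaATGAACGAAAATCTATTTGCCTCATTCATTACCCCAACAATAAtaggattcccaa
The 7 shared bases of mt-Nd4l and mt-Nd4 are too few to hold a whole read. Where a 3′ read lies wholly in shared bases, it cannot be told apart between the members of a pair. On the opposite strand, mt-Nd6 overlaps the end of mt-Nd5 only at chrM:13552-13565, which is also too short to hold a whole read.

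Promoters were examined for the letters bound by factors known for nuclear respiratory genes, in the RefSeq windows (GRCm38.p6) that run from 250 bases before to 50 after a gene's start. Windows were found for 68 of the 83 nuclear symbols. The NRF-1 palindrome CGCATGCGC, searched like the others on both strands, stood in 8 of the 68 genes (11.8%) and in 1.95% of 27025 genes in the table, and its core GCATGCGC, which lies within the longer motif, in 10 (14.7% against 3.05%). The ETS or GABP letters CCGGAAG stood in 16 (23.5% against 9.93%), and CCGGAAGT, which contains them, in 5 (7.35% against 4.31%). The YY1 letters AAGATGGCG stood in 7 (10.3% against 1.64%) and the ERR letters TCAAGGTCA in 2, Atp5g3 and Sdhd (2.94% against 0.466%). Only the YY1 match of Atp5j lies before the gene's start, and the other YY1 matches, that of Ndufs7 included, lie after it. The matches below, with 10 bases on each side, belong to members that recur in the results, and capitals mark the motif on the gene's own strand (the ETS letters of Atp5e and the ERR letters of Atp5g3 lie in reverse).
Sdhb, NRF-1 core, chr4:140961207-140961234, plus strand: agcccagtggGCATGCGCcctacgggcc
Ndufa6, NRF-1 core, chr15:82354357-82354384, minus strand: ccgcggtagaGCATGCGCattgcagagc
Atp5g2, NRF-1, chr15:102671070-102671098, minus strand: gctccggccgCGCATGCGCagagccttcc
Atp5e, ETS or GABP, chr2:174464187-174464213, minus strand: acggccacagCTTCCGGtagccgctcg
Atp5g3, ERR, chr2:73911360-73911388, minus strand: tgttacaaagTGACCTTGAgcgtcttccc
Ndufs7, YY1, chr10:80249463-80249491, plus strand: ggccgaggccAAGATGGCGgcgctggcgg
These matches describe sequence only, and a window without them says nothing about a factor.

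In the epithelial sums the shares of nuclear and of mitochondrial members ran in opposite directions between WT untreated and Tnfr2-/- TNF organoids. Nuclear members held 4.14%, 3.39%, 3.44% and 2.62% of epithelial UMIs, highest in WT untreated and lowest in Tnfr2-/- TNF organoids. Mitochondrial members held 3.80%, 4.32%, 4.92% and 6.22%, in the reverse order at both ends. The counting intervals of these shares did not overlap, and the widest ran from 6.21% to 6.23%. Mitochondrial UMIs per nuclear UMI of the members were 0.916, 1.28, 1.43 and 2.37. With only Progenitor.1 and Progenitor.2 cells kept, at equal weight in every library, the nuclear shares were 3.24%, 3.24%, 3.19% and 2.91%. WT untreated then no longer stood above WT TNF. This weighting leaves out every other epithelial class. It also gives the 62 Progenitor.2 cells of WT untreated organoids the same weight as the 546 Progenitor.1 cells of that library.

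Nuclear shares were lower in the Progenitor.2 class than in the Progenitor.1 class of every library, and the annotation names both by number only. Progenitor.1 cells (546, 335, 647 and 95 cells) had nuclear shares of 3.86%, 3.55%, 3.59% and 3.32% and mitochondrial shares of 3.33%, 4.31%, 5.09% and 5.84%. Progenitor.2 cells (62, 273, 233 and 716 cells) had nuclear shares of 2.61%, 2.94%, 2.79% and 2.51%. Their mitochondrial shares of 5.19%, 4.47%, 4.31% and 6.24% were above Progenitor.1 in all libraries but Tnfr2-/- untreated. The 62 Progenitor.2 cells of WT untreated organoids stood apart in depth, with a median of 15574.5 UMIs against 33685 to 39167 in the other libraries. Their mitochondrial share had a per-cell median of 9.70%, and its Spearman correlation with UMIs was -0.81 over these cells of 1 library. The markers went against a cycling progenitor in Progenitor.2: 4 progenitor and cell cycle markers summed to 11.9, 33.7, 31.2 and 44.9 CPM there and to 701, 701, 895 and 1129 CPM in Progenitor.1, and 5 absorptive markers to 3732, 3175, 1003 and 956 CPM and to 907, 994, 614 and 828 CPM. The class is called here by the annotation's name only. Progenitor.2 made up most of the Tnfr2-/- TNF epithelium, so the epithelial sums carry this class mix.

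The remaining epithelial classes spanned the same range. Absorptive cells, 319 cells found at the minimum of 20 per library only in WT untreated organoids, had the highest nuclear share of any class at 4.85%, with a mitochondrial share of 4.48%. The Secretory-Reg4-Spdef-Lyz1 class had nuclear shares of 3.91%, 3.60% and 3.53% in the first 3 libraries, and mitochondrial shares of 3.52%, 4.10% and 5.17%. Enteroendocrine cells (33 in WT untreated, 31 in WT TNF and 27 in Tnfr2-/- TNF organoids) had nuclear shares of 3.13%, 3.18% and 2.56% and mitochondrial shares of 4.53%, 3.76% and 6.37%.

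The lowest and the highest mitochondrial share of any class sum were both found in shallow cells, although other sums of shallow cells lay between them. Progenitor.3 (95, 148 and 51 cells in the first 3 libraries; median UMIs 7137, 9570 and 6364) had mitochondrial shares of 3.59%, 4.02% and 1.40% of its summed UMIs but per-cell medians of only 0.837%, 0.914% and 0.346%, whereas its nuclear shares of 4.41%, 3.93% and 4.13% were above those of Progenitor.1. The difference between these classes, made from the same counts, is a description. In Tnfr2-/- untreated organoids 12 of the 13 mitochondrial members were at least 1.5-fold lower in Progenitor.3 than in Progenitor.1, with a median difference of -1.76 against 0.19 for the nuclear members, where 29% of all genes were called lower. In the WT libraries none of the mitochondrial members tested was called lower in this class (medians 0.11 and -0.07), against 25% and 26.3% of all genes. At the other end, 34 Mesenchyme-Ptges cells of WT untreated organoids (median 5755 UMIs) had a mitochondrial share of 13.0% and a nuclear share of 1.33%. The part of depth and RNA quality in these values was not tested.

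**Figure D1:**
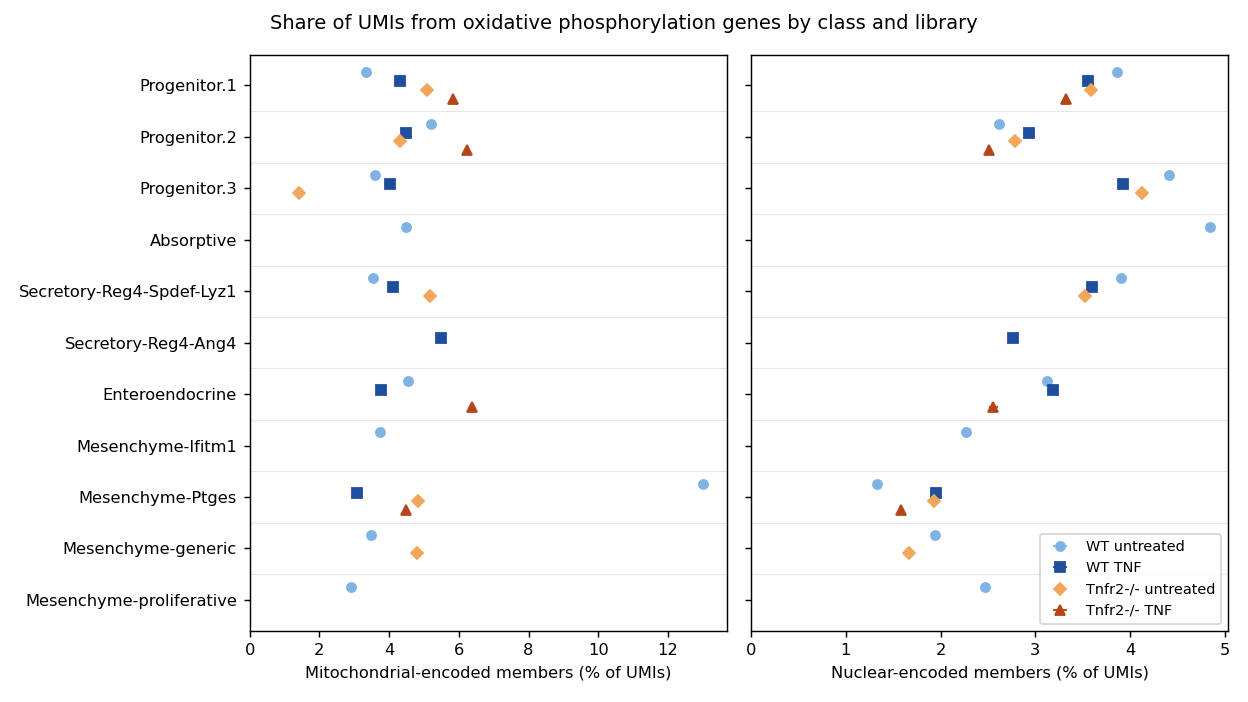
Share of UMIs (%) from the 13 mitochondrial and the 84 nuclear members for each annotation class with at least 20 cells, 1 point per library (1 culture each); bars are exact 95% intervals and cover counting error only. Nuclear shares sit lowest in mesenchymal classes and, among the progenitors, in Progenitor.2, and the mitochondrial share of Mesenchyme-Ptges cells of WT untreated organoids stands alone at 13.0%.

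Gene by gene, the epithelial nuclear members leaned lower in Tnfr2-/- than in WT organoids. A gene was tested where it reached 20 CPM in at least 1 of the 2 sums and was called at 1.5-fold (0.58 on the log2 scale). Without TNF, 0 of 75 nuclear members were called higher and 7 lower, with a median difference of -0.29, where 10.3% of all 6021 genes tested were called higher and 7.37% lower and the median of all genes was 0.11. With TNF, 0 of 74 were called higher and 20 lower (median -0.45), against 12.5% and 18.8% of all genes and a median of -0.10. With scaling to CPM, the members called lower with TNF were thus a share somewhat above the background. Those called lower untreated were a share close to it, and none was called higher. The mitochondrial members went the other way: 5 of 13 were called higher and 0 lower without TNF (median 0.44), and 3 higher and 1 lower with TNF (median 0.08).

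TNF went with lower nuclear levels in the epithelium of both genotypes. In WT organoids 0 of 75 were called higher and 4 lower (median -0.28), against 6.94% and 2.88% of all genes. In Tnfr2-/- organoids 0 of 74 were called higher and 20 lower (median -0.47), against 13.5% and 21.2%, again a lower count not far from the background. Mitochondrial members gave 1 called higher and 0 lower in WT (median 0.24) and 1 higher and 1 lower in Tnfr2-/- organoids (median -0.16). The comparisons share libraries in pairs, so they are not independent of each other.

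Within Progenitor.1 the nuclear calls were gone while a smaller lean stayed. The nuclear medians were -0.13 and -0.15 for Tnfr2-/- minus WT without and with TNF, and -0.11 and -0.13 for TNF minus untreated in WT and in Tnfr2-/- organoids, each with 0 of 74 members called in either direction. Of all genes in the same class, 5.77% were called higher and 3.04% lower for the genotypes untreated, 5.9% and 6.3% with TNF, 5.77% and 1.69% for TNF in WT, and 3.52% and 2.32% for TNF in Tnfr2-/- organoids. With only Progenitor.1 and Progenitor.2 kept, at equal weight in every library, the counts of nuclear members called lower were 0, 1, 0 and 0. In the epithelial sums they were 7, 20, 4 and 20, and with TMM scaling of these sums 14, 6, 10 and 7. With TMM scaling the genotype count was thus larger untreated than with TNF, the reverse of the unscaled order. The share of all genes called was not computed with TMM scaling or equal weights, so these counts have no background beside them. The equal weighting also drops the other epithelial classes, among them the Absorptive cells of WT untreated organoids. It thus changes more than the mix of Progenitor.1 and Progenitor.2.

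The mitochondrial members kept their genotype difference within Progenitor.1. Untreated, 8 of 13 were called higher in Tnfr2-/- than in WT and 0 lower (median 0.67): mt-Nd3 at 1.47, mt-Nd1 at 1.00, mt-Co3 at 0.92, mt-Nd6 at 0.92, mt-Nd2 at 0.77, mt-Atp6 at 0.73, mt-Atp8 at 0.67 and mt-Co1 at 0.65. With TNF 3 were called higher, mt-Nd1 and mt-Nd3 at 0.74 and mt-Co3 at 0.71, and 0 lower (median 0.29). TNF in WT Progenitor.1 cells gave a median of 0.39 with only mt-Nd6 called higher (0.64), and in Tnfr2-/- cells a median of -0.0043 with none called.

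Within Progenitor.2 the values depended on the 62 shallow WT untreated cells wherever these entered. With TNF, where both libraries held deeper cells, 0 nuclear members were called higher in Tnfr2-/- than in WT and 5 lower (median -0.29, against 8.78% and 12.4% of all genes, more than the members' share in both directions): Sdhb at -0.78, Ndufa1 at -0.78, Ndufa4 at -0.70, Sdhd at -0.61 and Ndufb9 at -0.61. Mitochondrial members gave 5 higher and 1 lower (median 0.19). TNF in Tnfr2-/- Progenitor.2 cells left 1 nuclear member called lower, Ndufa4 at -0.66, and 0 higher (against 4.8% and 2.67% of all genes, also above the members' shares), and 2 mitochondrial members called higher, mt-Co1 at 0.84 and mt-Co2 at 0.75. Cell markers in this class moved with the genotype difference: from WT TNF to Tnfr2-/- TNF the 5 absorptive markers went from 3175 to 956 CPM, 5 secretory markers from 577 to 1788 CPM and 3 enteroendocrine markers from 5.04 to 105 CPM, and their part in the result was not tested.

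**Figure D2:**
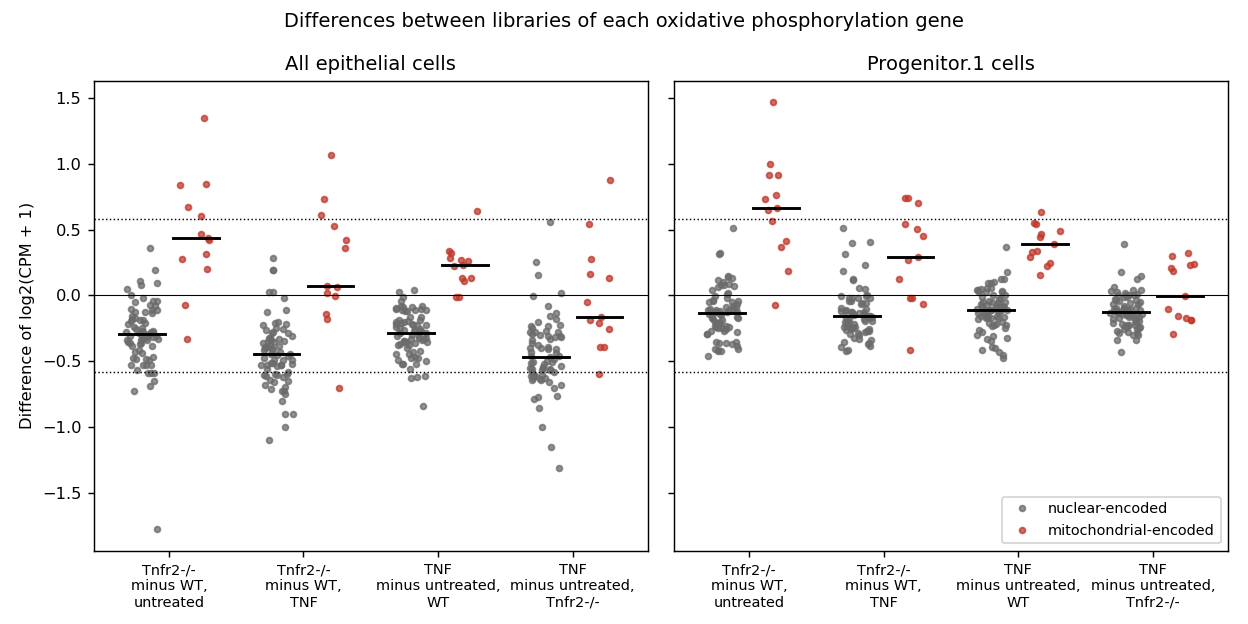
Log2 difference of each tested nuclear and mitochondrial member in epithelial (left) and Progenitor.1 (right) sums for the 4 comparisons of libraries (1 culture each); each point is 1 gene, the thick line marks the median, and the dotted lines mark 1.5-fold. Nuclear medians are between -0.47 and -0.28 in the epithelial sums and between -0.15 and -0.11 in Progenitor.1. The lowest epithelial point is Cox7a1 at -1.78, most of whose WT untreated UMIs came from Absorptive cells.

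Complex I is the NADH dehydrogenase and the entry point of most electrons. Its nuclear members summed to 10610, 8557, 8495 and 6208 CPM in epithelial cells, and its mitochondrial members to 7367, 8347, 9904 and 8586 CPM. Ndufb9, an accessory subunit of the membrane arm, was at 815, 552, 518 and 362 CPM in epithelial cells. By the smaller of its 2 genotype differences it was among the 3 lowest of 74 ranked nuclear members, at -0.65 (95% interval -0.68 to -0.63) untreated and -0.61 (-0.64 to -0.58) with TNF. Within Progenitor.1 the same differences of Ndufb9 were -0.35 and -0.33.

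Other complex I members followed TNF. Ndufb10, another membrane-arm subunit, was at 397, 259, 283 and 184 CPM, which is -0.61 for TNF in each genotype, and within Progenitor.1 its values were -0.43 and -0.23. Ndufs7, a core subunit that carries an iron-sulfur cluster, was at 331, 230, 229 and 146 CPM, with TNF differences of -0.53 and -0.64 (-0.42 and -0.28 within Progenitor.1). Ndufv3, a flavoprotein-fraction subunit, was at 274, 257, 198 and 293 CPM, with TNF differences of -0.10 in WT and 0.56 in Tnfr2-/- organoids, the latter just inside the 1.5-fold limit.

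Complex II, succinate dehydrogenase, has no mitochondrial member and also serves the citrate cycle. Its 4 genes summed to 623, 526, 488 and 371 CPM in epithelial cells, and they did not differ alike. Sdhb, the iron-sulfur subunit, was at 216, 158, 134 and 84.2 CPM, highest in WT untreated and lowest in Tnfr2-/- TNF organoids. Its differences for genotype, -0.69 (-0.74 to -0.65) untreated and -0.90 (-0.97 to -0.85) with TNF, were the lowest of the ranked nuclear members by the same rule. Within Progenitor.1 they were -0.41 and -0.39, within the 1.5-fold limit. The flavoprotein subunit Sdha was at 107, 93.0, 98.7 and 79.4 CPM, and the membrane anchors Sdhc and Sdhd at 120, 99.5, 100.1 and 101 CPM and at 181, 175, 156 and 106 CPM.

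Complex III, cytochrome bc1, passes electrons to cytochrome c. Its nuclear members summed to 5078, 4153, 4084 and 3126 CPM, while its only mitochondrial member mt-Cytb was nearly level at 5768, 5711, 5482 and 6016 CPM. Uqcrb, a small subunit near the ubiquinone site, was at 721, 567, 479 and 368 CPM. Its genotype differences were -0.59 (-0.62 to -0.57) and -0.62 (-0.65 to -0.59), and -0.28 and -0.43 within Progenitor.1.

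Complex IV, cytochrome c oxidase, differed in opposite senses between its genomes. Its nuclear members summed to 13410, 11210, 11540 and 9211 CPM and the 3 mitochondrial ones to 17090, 19830, 23120 and 35710 CPM. The catalytic subunit mt-Co1 was at 6479, 7625, 8690 and 16010 CPM in epithelial cells. In Tnfr2-/- TNF organoids it took 25.7% of the mitochondrial members' UMIs, against 17.1% to 17.7% in the other libraries. In Progenitor.2 mt-Co1 was at 9413, 9199, 9437 and 16850 CPM, against 5392, 6828, 8468 and 9974 CPM in Progenitor.1. It was highest in Tnfr2-/- TNF organoids outside this class too, at 19640 CPM in Enteroendocrine cells, against 8976 and 8424 CPM in those of the WT libraries, and at 9515 CPM in mesenchymal cells, against 5289, 4251 and 7660 CPM in the other libraries.

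Ndufa4, named for complex I but a subunit of complex IV, had the lowest TNF difference of the nuclear members in Tnfr2-/- organoids. It was at 1441, 1333, 1537 and 621 CPM in epithelial cells, so only the Tnfr2-/- TNF library was low. Its level tracked class in every library: 1626, 1616, 1721 and 1358 CPM in Progenitor.1 against 825, 810, 786 and 498 CPM in Progenitor.2. The epithelial TNF difference of -1.31 in Tnfr2-/- organoids was thus -0.34 within Progenitor.1 and -0.66 within Progenitor.2. Cox7a2l, which links complexes III and IV, and the small subunit Cox7c were among the 3 nuclear members least lowered by TNF, at 0.04 and 0.15 and at -0.08 and -0.15 in WT and Tnfr2-/- organoids.

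Complex V, the ATP synthase, held the member ranked lowest for TNF over both genotypes, Atp5g1. Its nuclear members summed to 11700, 9410, 9839 and 7318 CPM and mt-Atp6 with mt-Atp8 to 7723, 9316, 10680 and 11870 CPM. Atp5g1 encodes the c subunit of the rotating ring, a protein that Atp5g2 and Atp5g3 encode as well, so reads in their similar coding parts are of uncertain origin. Atp5g1 was at 985, 636, 683 and 340 CPM, with TNF differences of -0.63 (-0.65 to -0.61) in WT and -1.0 (-1.03 to -0.98) in Tnfr2-/- organoids. Within Progenitor.1 (1000, 720, 748 and 607 CPM) these were -0.47 and -0.30.

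Inside each library, Progenitor.2 lay under Progenitor.1 for many nuclear members, which is a description because the classes were made from the same counts. In order, 37, 16, 19 and 28 of 74 tested were called lower (medians -0.57, -0.34, -0.39 and -0.50), against 28.4%, 28.9%, 25.1% and 29% of all genes, so the counts of WT TNF and Tnfr2-/- untreated organoids were near the background. The lowest by rule were Ndufa4 (-0.98, -0.996, -1.13 and -1.45), Atp5g1 (-0.95, -0.93, -0.96 and -1.03) and the complex I subunit Ndufa5 (-0.90, -0.95, -1.01 and -1.22). Ndufa13, Ndufa7 and Ndufa11, also of complex I, stayed within -0.11 and 0.18 in all 4 libraries.

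Absorptive cells of WT untreated organoids had higher levels of 11 of 75 nuclear members than Progenitor.1, a smaller share than the 21.6% of all genes, with a nuclear median of 0.31 and a mitochondrial median of 0.35. Cox7a1, an isoform of the Cox7a subunit known from heart and skeletal muscle, led at 2.45, from 9.77 to 58.0 CPM. Ndufa1 (195 to 417 CPM, 1.09), Ndufa6 (351 to 700 CPM, 0.99) and Cox5a (1255 to 2330 CPM, 0.89) followed. Ndufa4 was at the low end at -0.56, from 1626 to 1103 CPM, with Atp5g2 (-0.41) and Ndufa9 (-0.25).

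Mesenchymal cells had less of most nuclear members in each library. Of 76, 75, 77 and 77 tested, 57, 49, 57 and 48 were at least 1.5-fold lower than in epithelial cells (medians -0.93, -0.77, -0.95 and -0.70), against 24.9%, 23.2%, 33% and 27.5% of all genes. Nuclear members took 2.20%, 1.95%, 1.77% and 1.59% of mesenchymal UMIs, and mitochondrial members 3.66%, 3.10%, 4.81% and 4.47%, so the mitochondrial medians of 0.05, -0.39, 0.02 and -0.34 lay closer to 0. Cox5a, a subunit on the matrix side of complex IV, was among the lowest at 387, 397, 255 and 293 CPM against 1585, 1032, 958 and 817 CPM in epithelial cells. Ndufa2 was at 309, 351, 318 and 317 CPM against 333, 314, 323 and 261 CPM, and thus hardly differed by lineage.

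Of 6 ratios between mitochondrial transcripts, 2 had class point values that did not overlap between the WT and the Tnfr2-/- libraries, although some counting intervals did. mt-Nd4l per mt-Nd4 was 0.306, 0.276, 0.211 and 0.187 in epithelial cells. Over single classes its point values were 0.242 to 0.392 in 17 class sums of the WT libraries and 0.164 to 0.231 in 10 of the Tnfr2-/- libraries. The interval of Progenitor.3 in Tnfr2-/- untreated (0.188 to 0.281) overlapped that of Enteroendocrine cells in WT TNF (0.221 to 0.265). mt-Cytb per mt-Atp6 was 0.765, 0.628, 0.526 and 0.515, with class ranges of 0.585 to 0.997 and 0.397 to 0.571.

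The other 4 ratios overlapped. mt-Atp8 per mt-Atp6, the other pair on a shared mRNA, was 0.0248, 0.0240, 0.0243 and 0.0165 in epithelial cells, with class ranges of 0.0211 to 0.0339 in WT and 0.0134 to 0.0250 in Tnfr2-/- libraries. The class ranges of mt-Co1 were 0.706 to 1.35 and 0.743 to 1.62 per mt-Co2, and 0.589 to 1.23 and 0.574 to 1.76 per mt-Atp6. mt-Nd3 per mt-Nd2 was 0.114, 0.117, 0.191 and 0.150 in epithelial cells, with class ranges of 0.0709 to 0.150 in WT and 0.145 to 0.220 in Tnfr2-/- libraries. mt-Nd3 itself, a core subunit of complex I, was at 185, 232, 471 and 311 CPM. These pairs were picked after their values were seen, and classes of 1 library share its cells and handling. mt-Nd4l and mt-Nd4 lie on a shared mRNA, and how reads near their joint were assigned was not examined. The ranges thus describe 4 libraries and are not a test of genotype. Restricting the sums to cells with at least 5000 UMIs, a check chosen after seeing the data, left mt-Nd4l per mt-Nd4 at 0.306, 0.274, 0.211 and 0.187.

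**Figure D3:**
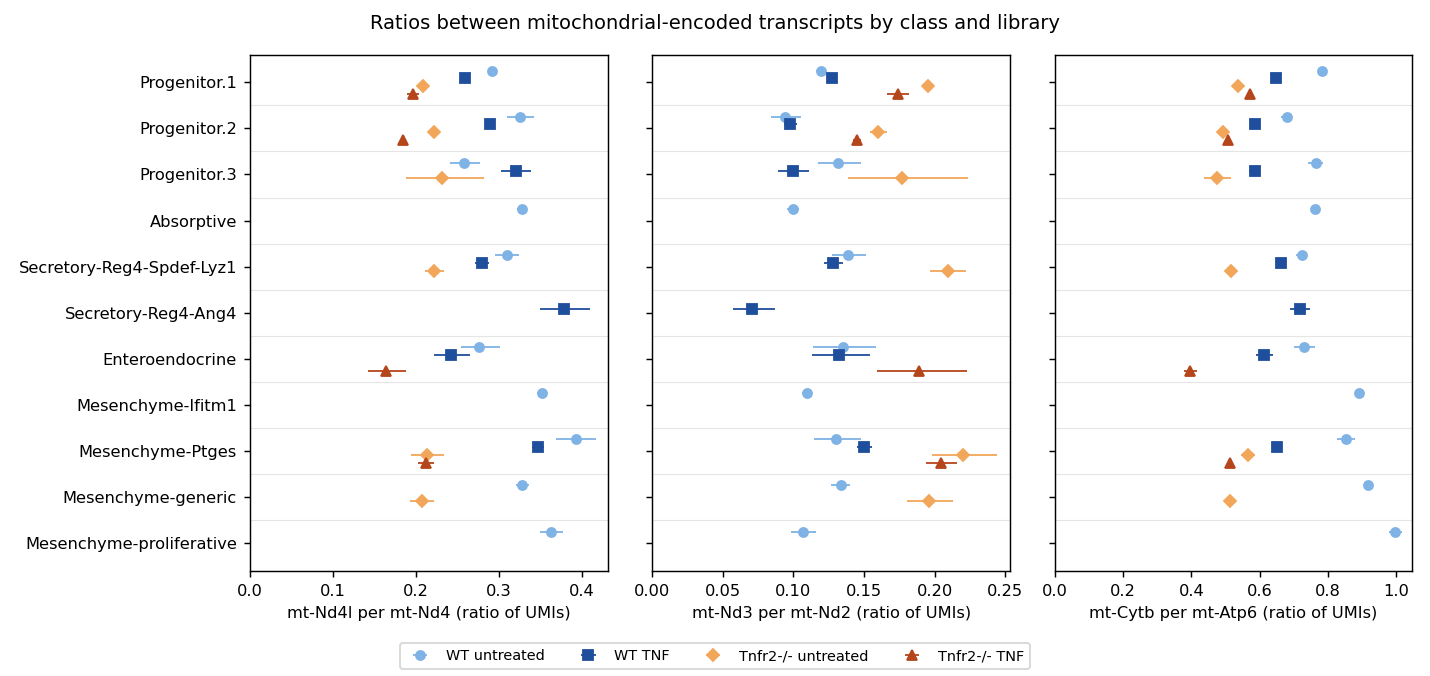
Ratios of UMIs between pairs of mitochondrial members, 1 point per annotation class with at least 20 cells, by library (1 culture each); bars are exact 95% intervals and cover counting error only. Points of mt-Nd4l per mt-Nd4 and of mt-Cytb per mt-Atp6 do not overlap between WT (17 points) and Tnfr2-/- (10 points), although some of their bars do. Those of mt-Nd3 per mt-Nd2 overlap between 0.145 and 0.150.

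Members on chromosome 19 and some on chromosome 2 stood above the other nuclear members for genotype in Progenitor.1. They were looked at because an earlier result of these data pointed there, so their position is no independent evidence. On chromosome 19 (GRCm38) lie the complex I core subunits Ndufs8 (3908863 to 3912774) and Ndufv1 (4007384 to 4012806), the complex IV subunit Cox8a (7215153 to 7217616) and the complex I subunit Ndufb8 (44548572 to 44555440), all on the minus strand. Their Tnfr2-/- minus WT differences without and with TNF were 0.14 and 0.23 for Ndufs8, 0.33 and 0.40 for Ndufv1, 0.32 and 0.52 for Cox8a, and 0.09 and 0.12 for Ndufb8, where the medians of 62 members on other autosomes were -0.14 and -0.16. At most 3 of those 62 reached the value of any of these genes in the same comparison. Over all epithelial cells untreated, 1, 0, 0 and 12 of 63 others reached the values of Ndufs8, Ndufv1, Cox8a and Ndufb8. With TNF 18, 13, 0 and 14 of 62 did. In Progenitor.2 these counts were 9, 1, 3 and 27 of 62 untreated and 1, 4, 0 and 9 with TNF.

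Chromosome 2 was mixed. The epsilon subunit of ATP synthase Atp5e (174461072 to 174464105) was at 0.51 and 0.41 and the gamma subunit Atp5c1 (10056016 to 10080510) at 0.12 and 0.32. Ndufa8 (-0.36 and -0.14), Atp5g3 (-0.18 and -0.30) and Ndufs3 (-0.30 and -0.32) were near or under the other members. Among the X-linked members, Ndufb11 was at -0.46 and -0.37, under all 62 others untreated, Ndufa1 at -0.08 and -0.42, and Cox7b at -0.05 and -0.23.

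In the mesenchymal sums the chromosome 19 members did not stand above the others. There Ndufs8, Ndufv1, Cox8a and Ndufb8 were at -0.41, -0.52, -0.36 and -0.62 untreated and at -0.61, -0.72, -0.23 and -0.58 with TNF, beside medians of -0.32 and -0.40 for 64 others. On chromosome 2, Atp5e was at -0.18 and -0.29 in these sums and Atp5c1 at -0.60 and -0.22, and the isoform Cox4i2, which lies on the same chromosome and is described further on, was at 3.08 and 3.26. Cox8a was at 2087, 1685, 2252 and 2055 CPM in epithelial cells, and Atp5e at 739, 682, 948 and 780 CPM. Over all epithelial cells Atp5e (0.36 and 0.19), Cox8a (0.11 and 0.29) and Atp5c1 (-0.04 and 0.03) ranked as the 3 highest nuclear members for genotype, all within the 1.5-fold limit.

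**Figure D4:**
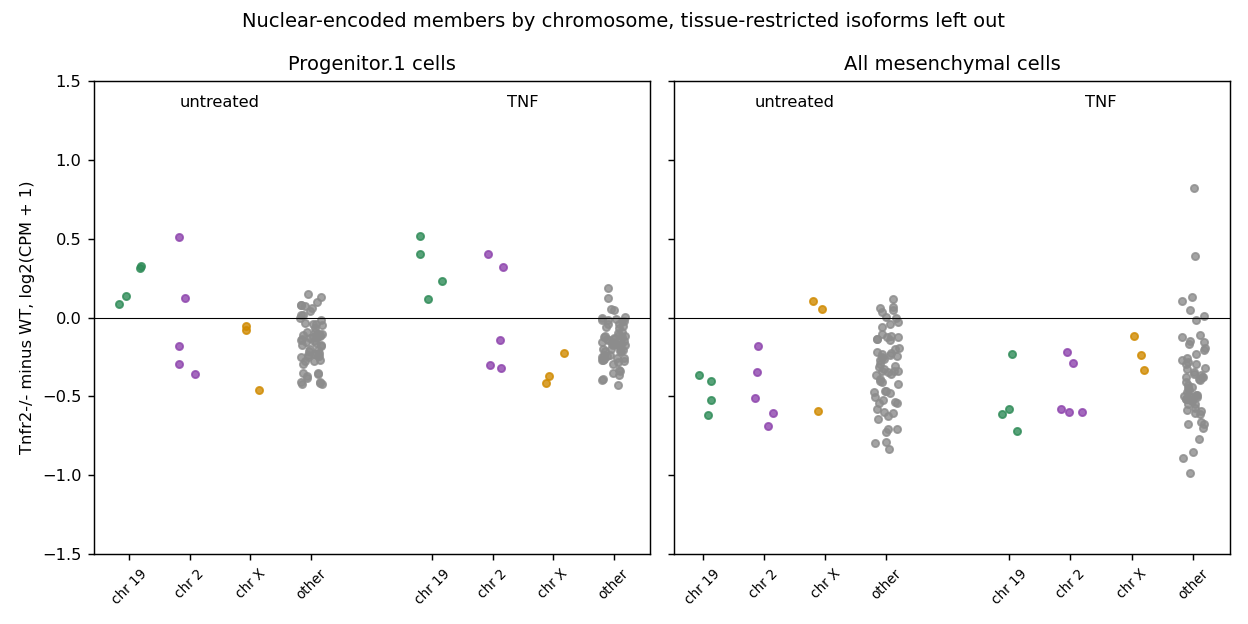
Log2 difference of nuclear members, Tnfr2-/- minus WT, in Progenitor.1 and in mesenchymal cells, without and with TNF, grouped by chromosome 19, 2, X and all others; each point is 1 gene and the tissue-restricted isoforms are left out. In Progenitor.1 the chromosome 19 points (0.09 to 0.52) lie above the medians of the others (-0.14 and -0.16), and in mesenchymal cells they lie between -0.72 and -0.23.

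Complex IV has isoforms that replace a common subunit in certain tissues, and several were detected here by lineage. Cox6b2, known from testis, was at 106, 42.3, 23.0 and 39.4 CPM in mesenchymal and at 1.23, 1.04, 0.217 and 0.478 CPM in epithelial cells, differences of 5.59, 4.41, 4.30 and 4.77. Cox7a1 was the reverse, at 25.9, 14.0, 6.83 and 12.2 CPM in epithelial and at most 2.93 CPM in mesenchymal cells, and its epithelial difference for genotype without TNF, -1.78, was the lowest of the members tested. Of its 1303 epithelial UMIs in WT untreated organoids 932 came from Absorptive cells, a class under 20 cells in the other libraries, and within Progenitor.1 Cox7a1 was at 9.77 and 4.87 CPM in the untreated libraries, under the 20 CPM minimum of the test. Cox6a2, a muscle isoform, was at 5.83, 0.0680, 3.68 and 0.838 CPM in mesenchymal cells.

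Cox4i2, an oxygen-responsive isoform of the Cox4 subunit, and Ndufa4l2, a relative of Ndufa4 known as a target of hypoxia signalling, had higher summed mesenchymal levels in the Tnfr2-/- than in the WT libraries. In mesenchymal cells Cox4i2 was at 8.39, 14.0, 78.6 and 143 CPM and Ndufa4l2 at 4.08, 12.9, 122 and 168 CPM, while the common isoform Cox4i1 was at 706, 630, 596 and 679 CPM. Both Tnfr2-/- libraries were thus above both WT libraries. Class mix moved with this: all 122 mesenchymal cells of Tnfr2-/- TNF were Mesenchyme-Ptges, as were 304 of 306 of WT TNF, and within Mesenchyme-Ptges with TNF the differences were 3.25 for Cox4i2 and 3.60 for Ndufa4l2. Untreated, Mesenchyme-Ptges held only 34 and 37 cells, and Mesenchyme-generic gave 2.01 CPM in WT and 17.6 CPM in Tnfr2-/- organoids for Cox4i2. For Ndufa4l2 the Mesenchyme-generic levels were 9.81 CPM in WT and 27.5 CPM in Tnfr2-/- organoids. The Tnfr2-/- level rested mostly on 1 cell, which held 34 of its 36 UMIs, whereas the 88 UMIs in WT came from 34 cells. The share of cells with a UMI was 8.65% (34 of 393) in WT and 5.88% (3 of 51) in Tnfr2-/- organoids.

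The share of all mesenchymal cells with a UMI gave the same order of libraries. After thinning each cell to 5000 UMIs, which left out 405 cells of the 4 libraries, Cox4i2 was found in 3.32%, 6.04%, 29.1% and 40.8% of mesenchymal cells. It was found in 0 of 1085, 873, 990 and 846 thinned epithelial cells, where the exact upper limits are 0.339%, 0.422%, 0.372% and 0.435% of cells with a UMI at this depth. Unthinned, it was found in 2, 2, 0 and 3 of 1128, 1163, 1023 and 858 epithelial cells. Median depths before thinning were 22642.5 to 48633 UMIs in mesenchymal and 30306 to 41057 UMIs in epithelial cells, and unthinned the mesenchymal shares were 15.2%, 22.2%, 42.2% and 77.9%. For Ndufa4l2 the thinned mesenchymal shares were 1.27%, 3.36%, 16.3% and 40.0%, and the epithelial ones 0.276%, 2.98%, 0% (0 of 990, up to 0.372%) and 0.827%. Epithelial Ndufa4l2 was thus highest in WT TNF organoids, at 1.41, 10.7, 0.0197 and 1.68 CPM.

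Both transcripts were found together in 5, 10, 17 and 60 mesenchymal cells, which is 2.29%, 14.7%, 44.7% and 63.2% of the 218, 68, 38 and 95 cells with Cox4i2 and 8.93%, 45.5%, 77.3% and 90.9% of the 56, 22, 22 and 66 with Ndufa4l2. These shares moved with the number of cells that held each transcript. Among all members in Mesenchyme-Ptges with TNF, 3 of 77 nuclear genes were called higher in Tnfr2-/- (these isoforms and Ndufv3 at 0.82) and 16 lower (median -0.40), shares that did not exceed the 12.3% and 23.6% of all genes. Of 12 mitochondrial members 3 were called higher, mt-Co1 at 1.17, mt-Co2 at 0.73 and mt-Nd3 at 0.60, and mt-Nd4l lower at -0.63.

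**Figure D5:**
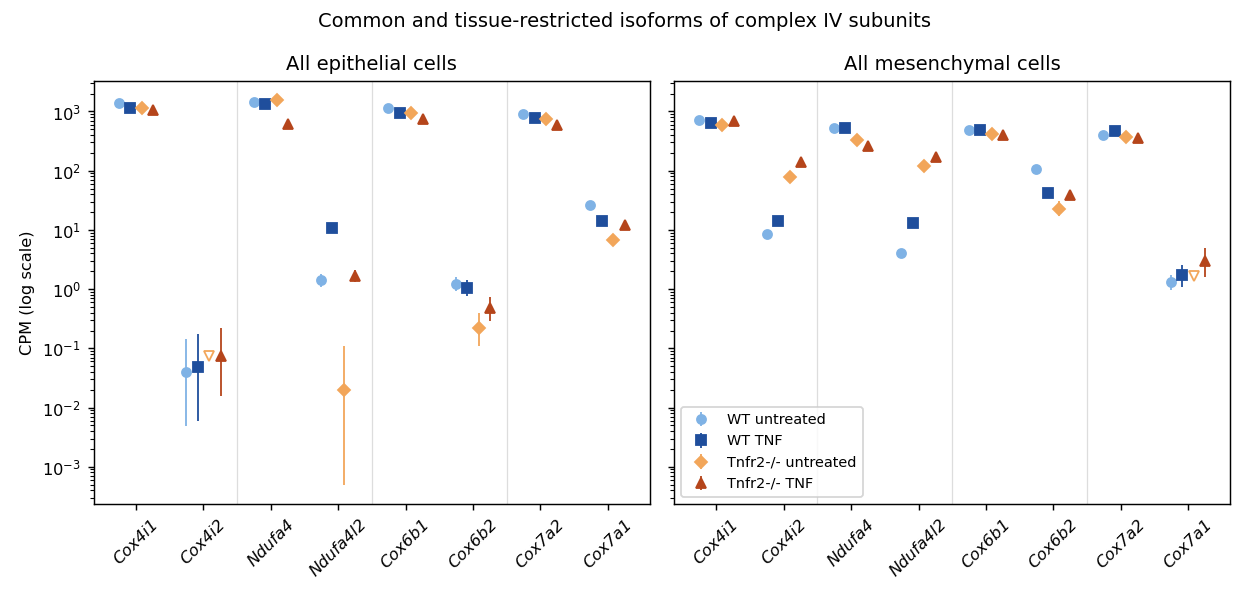
Level (CPM, log axis) of 4 tissue-restricted isoforms and their common partners in epithelial and mesenchymal sums of each library; bars are exact 95% Poisson intervals and open triangles mark the upper limit where no UMI was found. Cox4i2 and Ndufa4l2 are above 70 CPM only in the mesenchymal cells of the Tnfr2-/- libraries.

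The other genes of the pathway, listed by role, leaned as the nuclear members did in the epithelial sums. For Tnfr2-/- minus WT with TNF, 7 of 9 tested carriers and further subunits were called lower, 2 of 4 assembly factors of complex I, 6 of 17 assembly factors of complexes II to V, 3 of 5 genes of mitochondrial gene expression and 5 of 12 citrate cycle genes, and 0 of any of them higher, where 18.8% of all genes were called lower. For TNF in Tnfr2-/- organoids the counts called lower were 7 of 9, 2 of 4, 7 of 21, 6 of 6 and 5 of 12, again with 0 higher, where 21.2% of all genes were called lower. Untreated, 1 carrier of 9 was called lower for genotype and 0 genes higher, and TNF in WT gave 0 lower and 1 higher, an assembly factor among 19. The list of nuclear regulators did not lean lower for genotype, with 1 of 6 called higher untreated (median 0.26) and 1 of 5 with TNF (median 0.19). Cycs, cytochrome c, was at 464, 375, 366 and 218 CPM and Tfam, which packages and transcribes mitochondrial DNA, at 41.5, 36.9, 41.3 and 21.9 CPM in epithelial cells. Within Progenitor.1 at most 1 gene of any of these lists was called lower in either comparison. Beside this, 4 cell cycle markers summed to 428, 413, 668 and 186 CPM in epithelial cells. They were lowest where the nuclear members were lowest, but highest in Tnfr2-/- untreated organoids. The nuclear share was highest in WT untreated organoids instead. The part of these markers in the result was not tested.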

How the data were processed

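The authors deposited 1 table of raw UMI counts per gene and cell for all 4 libraries, with a cell annotation. Per the labels and the study's methods, dead cells were removed by annexin V, 3′ libraries were counted with Cell Ranger 5.0.0 (submitters' processing notes) on mm10, cells under 100 UMIs and epithelial-mesenchymal doublets were dropped, and Leiden clusters were named. No doublet caller was run again. Whether counting used strand is not given in the sources used here, and the sequencer is named differently in the labels and the methods. Deposited classes were used, and plotting coordinates and size factors were not.

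Counts were summed per class (at least 20 cells) and library and scaled to CPM. Shares have Clopper-Pearson and levels exact Poisson 95% intervals. Alternatives were TMM factors (edgeR 4.0.16), median-of-ratios factors, other pseudocounts, CPM minimums and folds, equal class weights, cells with at least 5000 UMIs and a denominator without mitochondrial UMIs. Python 3.11.15 scripts were tested on simulated data. The members and lists were chosen with earlier results of these data known. Named genes were all mitochondrial members, tissue isoforms with partners, Sdha to Sdhd, nuclear members on chromosomes 2, 19 and X, and the 3 highest and 3 lowest nuclear members by the smaller difference in each comparison; further genes were named after their values were seen. Coordinates are GRCm38, the build that mm10 denotes.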

Additional observations from a re-analysis of the deposited data

Results flagged for a closer look

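A few medians over the members changed sign between genotypes or between treatments. With 1 library per condition none of these differences of differences was tested.

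The mitochondrial members of Progenitor.1 had a median TNF difference of 0.394 (log2 scale) in WT and -0.0043 in Tnfr2-/- organoids. Over all epithelial cells the same medians were 0.235 and -0.164. In Progenitor.2 the mitochondrial medians for TNF were -0.256 in WT and 0.287 in Tnfr2-/- organoids, and those for Tnfr2-/- minus WT were -0.28 untreated and 0.188 with TNF. The nuclear members of Progenitor.2 had median TNF differences of 0.146 in WT and -0.204 in Tnfr2-/- organoids, and genotype differences of 0.0505 untreated and -0.291 with TNF. All Progenitor.2 medians that involve WT untreated organoids rest on 62 cells with a median of 15574.5 UMIs, and the part of that depth in them was not tested.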

How the results depend on the processing

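No paired analysis was possible because each condition was 1 library, and for the same reason no fit without 1 library was run. Values are in the order WT untreated, WT TNF, Tnfr2-/- untreated, Tnfr2-/- TNF for shares, and Tnfr2-/- minus WT untreated, the same with TNF, TNF in WT, TNF in Tnfr2-/- for comparisons.

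Averaged over cells, the mitochondrial shares were 4.636%, 5.001%, 5.557% and 7.1%, and the nuclear ones 3.963%, 3.223%, 3.349% and 2.515%. With Progenitor.1 and Progenitor.2 weighted equally and the other epithelial classes left out, they were 4.262%, 4.39%, 4.699% and 6.039%, and 3.236%, 3.244%, 3.188% and 2.914%. Without mitochondrial UMIs in the denominator the nuclear shares were 4.305%, 3.539%, 3.622% and 2.797%. Cells with at least 5000 UMIs gave mitochondrial shares of 3.782% and 4.309% in the WT libraries and a nuclear share of 3.392% in WT TNF, and a Progenitor.2 minus Progenitor.1 mitochondrial median of 0.565 in WT untreated.

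The nuclear epithelial medians were -0.393, -0.289, -0.381 and -0.304 with TMM factors, -0.409, -0.296, -0.382 and -0.297 with median-of-ratios factors, and -0.0564, -0.222, -0.00676 and -0.17 with equal class weights, and the last was -0.43 with no minimum beyond 1 UMI. Nuclear members called lower numbered 14, 6, 10 and 7 with TMM factors, 17, 6, 10 and 7 with median-of-ratios factors, 0, 1, 0 and 0 with equal weights, 1, 2, 0 and 3 at 2-fold, and 31, 55, 31 and 50 at a smaller fold of 0.32 (log2). TMM factors moved the median of all genes from 0.108, -0.0962, 0.0385 and -0.119 to -0.0018, 0.0758, -0.0638 and 0.0545. The untreated count was 4 with a pseudocount of 10 CPM and 4 without mitochondrial UMIs in the denominator. The share of all genes called was not computed under these alternatives. These counts, and the mitochondrial ones below, thus have no background beside them.

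The mitochondrial medians were 0.335, 0.233, 0.136 and -0.0026 with TMM factors, 0.32, 0.226, 0.135 and 0.00532 with median-of-ratios factors, and 0.204, 0.242, 0.0237 and 0.112 with equal weights, so that the last comparison changed sign. Without mitochondrial UMIs in the denominator they were 0.454, 0.104 and, for TNF in Tnfr2-/-, -0.144, and with a pseudocount of 10 CPM 0.423 untreated and -0.14 for TNF in Tnfr2-/-. Mitochondrial members called higher numbered 3 for genotype untreated, 0 for TNF in WT and 2 for TNF in Tnfr2-/- with TMM as with median-of-ratios factors, 2, 0 and 0 for these with equal weights, 1, 1, 0 and 0 at 2-fold, 8, 6, 3 and 2 at the smaller fold, and 0 for TNF in WT with a pseudocount of 10 CPM.

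The cause of these shifts was not tested. Single genes that changed sign were Ndufa6 (genotype untreated, 0.0152 with equal weights and 0.318 within Progenitor.2), mt-Co3, mt-Nd2 and mt-Nd6 (genotype untreated, -0.0756, -0.28 and -0.358 within Progenitor.2), and, for TNF in WT, Cox7a1 (0.255 with equal weights and 0.653 within Progenitor.2) and, within Progenitor.2, Cox5a (0.00908), Ndufb10 (0.178) and mt-Nd6 (-0.0498). Of 300 values of named genes called at 1.5-fold, over 6 alternatives, 166 kept their direction but lost the call and 124 kept both, and 51 of 960 values not called passed 1.5-fold. Counting error was small against these shifts, but it does not hold the spread between cultures.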

Other observations

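The annotation left 35 cells without a class, and these entered no class sum above. In WT untreated organoids 31 such cells (median 66566 UMIs) had mitochondrial shares of 1.78% to 11.5% with a median of 3.75%, and nuclear shares of 1.86% to 5.52% with a median of 3.58%. In Tnfr2-/- untreated organoids 4 such cells (median 88648 UMIs) had mitochondrial shares of 4.76% to 8.04% and nuclear shares of 2.84% to 3.61%.

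The Secretory-Reg4-Ang4 class reached 20 cells only in WT TNF organoids, with 246 cells of a median depth of 1957.5 UMIs. Its mitochondrial members held 5.49% and its nuclear members 2.77% of its UMIs.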
